A study of Mus musculus with 18 samples.

Results

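Follicle-stimulating hormone (FSH) acts on granulosa cells through a receptor that activates a stimulatory G protein, which turns on adenylyl cyclase and so raises cyclic AMP (cAMP). Cyclic AMP releases the catalytic subunits of protein kinase A (PKA) from their regulatory subunits, and PKA phosphorylates CREB-family factors that switch on cAMP-responsive genes. Phosphodiesterases then break the second messenger down, and some of the induced genes are themselves brakes on the pathway. The genes described here were 8 listed as response genes of the FSH and cAMP pathway, and not all of them are steps of that chain. They were Prkar2b (the RII beta regulatory subunit of PKA, a well-known FSH-induced gene of granulosa cells), Sgk1 (a serum- and glucocorticoid-regulated kinase), Mro (maestro, named for its male-biased expression in the developing gonad), Adcy7 (an adenylyl cyclase), Pde4b and Pde4d (cAMP-specific phosphodiesterases), Crem (the cAMP-responsive element modulator, whose products include repressors of the response) and Rgs2 (a regulator of G protein signalling). All probe sets whose array annotation gave 1 of these symbols alone were taken, which were 24 of 45037 probe sets. Of the 24, 16 lay above the filter on low signals and were tested among 22518 in all. The other 8 are listed further down, and each gene kept at least 1 tested probe set.

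There were 18 arrays, each of a culture in single drops of follicles at the preantral to small antral stage. The follicles were dissected from ovaries of female C57BL/6Ntac mice aged 6 to 8 weeks. AMH (recombinant anti-Müllerian hormone), which granulosa cells make and which restrains follicle growth, was given at 50 or 200 ng/mL, and the controls received vehicle. Cultures ran for 12 or 24 h, with 3 arrays in each of the 6 groups. Every culture, the vehicle ones included, also contained 80 IU/L FSH and 10 IU/L LH, so there was no group without gonadotropin and the response of these genes to FSH itself was not measured. Each experiment pooled the follicles of 7 mice and split them among vehicle and the AMH doses, and each time had 3 such pools. The submitters describe samples as comparable within an experiment. A comparison of 24 with 12 h therefore sets different pools against each other, and the pools are its replicates.

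A follicle holds an oocyte, granulosa cells and some theca, vessel and immune cells, and in such bulk RNA fewer cells of a type and less RNA per cell cannot be told apart. Granulosa markers were present on every array, with a summed signal of 3030 to 10820 over 12 of 13 listed markers on the 17 arrays described next. Replicate 3 of AMH 50 ng/mL at 12 h stood apart. It correlated with the other arrays at 0.604 to 0.624, while those correlated among themselves at 0.904 to 0.992, and the mean of its hybridisation controls was 32130, where the others had 1582 to 3879. Its values are given apart, and the fits used the other 17 arrays. The number of arrays limits the precision of all comparisons. Signals are on a linear scale as deposited, changes are differences of log2(signal + 16), and this added 16 makes the change of a low signal look smaller.

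The cAMP response element (CRE) is the DNA site through which CREB and CREM act, so the start-site windows of the genes were searched for it. RefSeq promoters (GRCm38.p6, 250 bases before to 50 after a transcript start) were read for 6 of the 8 genes, 17 windows in all. The windows of Mro and Crem were not searched. The full palindrome TGACGTCA was in none of the 17, against 588 of all 32851 windows of that length (1.79%). The half-site TGACG, read on either strand, was in 4 of the 17, 1 each from Sgk1, Adcy7, Pde4b and Rgs2, against 20.8% of all windows, a share close to that of the 17. By gene, 4 of the 6 had it in at least 1 window, against 23% of 27025 genes, a count that grows with the windows per gene. The half-site is part of the full palindrome, so each full match also counts as a half-site. Of the windows with a match, those of Pde4b and Rgs2 are printed as examples. The Pde4b probe set of highest mean signal was lower in every vehicle array of 24 h than in any of 12 h. A share of 11.4% of all probe sets was likewise lower, and the second tested Pde4b set overlapped. The change of Rgs2 with time lay near 0. Pde4b lies at chr4:102087332-102607275 and Rgs2 at chr1:143999338-144004149 in this build. Each line gives the 250 bases before the start, 5′ to 3′ on the gene's strand, with the half-site in capitals. The Pde4b stretch is chr4:102421305-102421554, plus strand, 1 of 4 Pde4b windows, with its match beginning 34 bases before the start. The Rgs2 stretch is chr1:144004150-144004399, minus strand, the gene's only window, with matches beginning 185 and 67 bases before the start.
Pde4b: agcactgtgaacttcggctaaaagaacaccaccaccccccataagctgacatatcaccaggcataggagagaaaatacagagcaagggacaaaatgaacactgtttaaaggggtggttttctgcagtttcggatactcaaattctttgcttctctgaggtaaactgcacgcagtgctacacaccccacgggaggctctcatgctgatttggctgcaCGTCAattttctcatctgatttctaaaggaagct
Rgs2: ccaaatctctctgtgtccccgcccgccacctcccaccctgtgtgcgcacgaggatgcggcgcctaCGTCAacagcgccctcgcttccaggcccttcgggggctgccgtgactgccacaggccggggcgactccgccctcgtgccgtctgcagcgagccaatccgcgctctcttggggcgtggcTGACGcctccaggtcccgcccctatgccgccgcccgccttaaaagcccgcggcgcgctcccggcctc
A match is a string of letters and no evidence of a bound site, and the arrays do not say which start a transcript used. The windows of Prkar2b (2) and Pde4d (1) held no match of either kind.

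With culture time in vehicle, Mro rose from a 12 h mean below the filter level, and no other member passed the test. Crem and Pde4b were lower at 24 h in all 3 vehicle arrays than in any of the 12 h arrays, Prkar2b was higher on average, and the intervals of Sgk1 and Rgs2 included 0. The early and late arrays came from separate experiments, across which the submitters do not call samples comparable. By limma with Benjamini-Hochberg adjustment, 1 of the 16 member probe sets was called (Mro), against 291 of 22518 probe sets overall (1.29%; 0.875% higher and 0.417% lower). With the replicate number as a block, 642 probe sets were called and Mro was again the only member. An unadjusted p under 0.05 was reached by 6 of the 16, against 18.6% of all probe sets. These were sets of Prkar2b, Mro, Crem and Pde4b, so some genes counted more than once. The members were also chosen with earlier results of these data known, so these counts are a description only. The median change of the 8 leads, the probe set with the highest mean of each gene, was -0.20, with 4 above and 4 below 0.

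**Figure D1:**
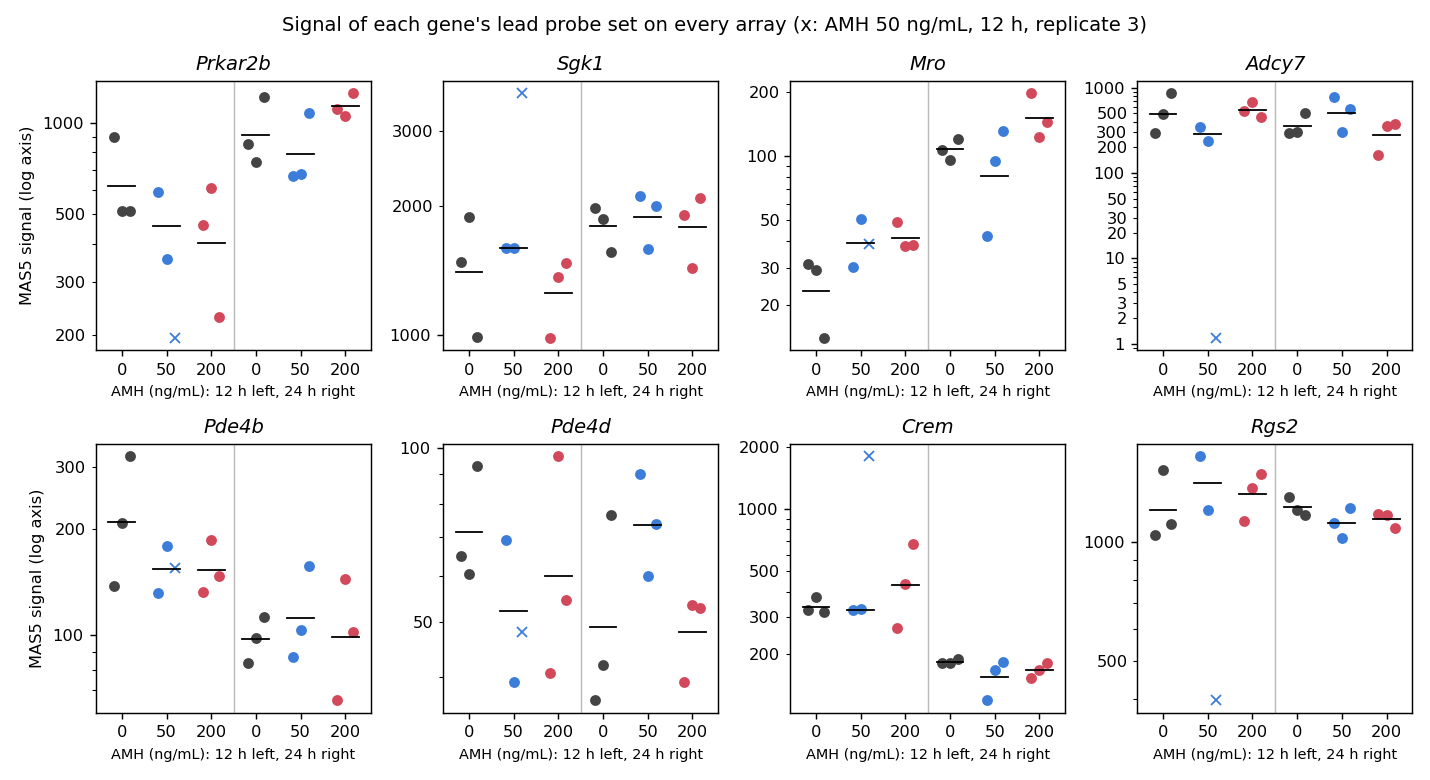
MAS5 signal (log axis) of the lead probe set of each gene on all 18 arrays, by AMH dose in ng/mL at 12 h (left of the grey line) and 24 h (right). Points are arrays in the order of replicates 1 to 3, black bars are geometric means without the array that stood apart (replicate 3 of the lower dose at 12 h), which is drawn as an x. Crem at 24 h is no higher than 190 in any of 9 arrays, below all 12 h arrays, and Mro reaches 197 at 24 h.

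Mro gave signals of 31.3, 29.2 and 14.1 in the vehicle arrays of 12 h and of 107, 95.7 and 121 in those of 24 h. The lowest 24 h array thus stood at over 3 times the highest 12 h array. The log2 change was 1.62 (SE 0.24, 3 against 3 pools, adjusted p = 0.0296, limma), which is 3.08-fold on the (signal + 16) scale. Its adjusted p was 0.0291 with the replicate block, and 0.0156 with all 17 arrays and the pool as a random block. In vehicle at 12 h the mean log2 value of Mro was 5.32, below the filter level of 5.44. Mro was tested because its mean over the 17 arrays, 6.35, exceeded that level. The size of its change rests on the added 16, and was 2.15 with an added 1 and 1.08 with an added 50. The call was lost, with a log2 change of 1.55 to 1.71, when vehicle 12 h replicate 2 was left out (adjusted p = 0.0707) or 24 h replicate 1, 2 or 3 (0.156, 0.104 and 0.123), and also with no filter on low signals (0.0701). Mro was the only 1 of the 16 tested member probe sets that was higher at 24 h without overlap in vehicle, as 13.6% of all probe sets were. In the AMH 200 ng/mL arrays the same separation held, at 49.1, 37.9 and 38.4 after 12 h and 197, 123 and 144 after 24 h. In that arm sets of Prkar2b, Adcy7, Pde4b and Crem did not overlap either. The share of all probe sets without overlap in that arm was not counted. In the AMH 50 ng/mL arrays Mro overlapped, since replicate 1 of 24 h had 42.4, below the 50.9 of a 12 h array.

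Prkar2b was higher at 24 h on average, with overlap, and did not pass the test. Its lead probe set gave 899, 512 and 513 in vehicle at 12 h and 850, 742 and 1212 at 24 h, so 2 of the 3 early arrays lay below all late ones and the first lay among them. The log2 change was 0.55 (SE 0.26, adjusted p = 0.303), 0.35 without vehicle 24 h replicate 3, 0.82 without vehicle 12 h replicate 1 and 0.28 with array weights. Both other Prkar2b probe sets gave larger values, 0.82 (SE 0.28, adjusted p = 0.173) and 0.91 (SE 0.32, adjusted p = 0.187), and the 3 sets correlated at 0.96 to 0.989 over the 17 arrays. With AMH 200 ng/mL the lead had 463, 610 and 229 at 12 h and 1113, 1055 and 1250 at 24 h. The times did not overlap there, as in sets of other members, and the share over all probe sets was not counted. The 24 h mean was above the 12 h mean by 0.55 on the log2 scale in vehicle, 0.76 in AMH 50 ng/mL and 1.46 in AMH 200 ng/mL. The AMH 50 ng/mL arm had 2 early arrays, and the 229 came from the array with the lowest granulosa marker mean of the 17 (7.08). Neither AMH effect passed the test for a difference between the times (adjusted p = 0.627 for 200 and 0.999 for 50 ng/mL, limma).

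Crem was lower at 24 h in both of its tested probe sets. For the lead, the vehicle arrays gave 324, 376 and 318 at 12 h and 180, 180 and 190 at 24 h, a change of -0.83 (SE 0.16, adjusted p = 0.0523), which narrowly missed the threshold of 0.05. The second tested Crem probe set gave 165, 222 and 201 at 12 h and 83.4, 95.5 and 114 at 24 h, a change of -0.90 (SE 0.21, adjusted p = 0.0735). Neither set overlapped between the times in vehicle, and with the lead of Pde4b they were the 3 tested member probe sets lower without overlap, where 11.4% of all probe sets did so. Over all doses, the Crem lead ran from 266 to 682 in the 8 arrays of 12 h (median 327) and from 119 to 190 in the 9 of 24 h (median 180), again with no overlap. It was the only 1 of the 16 with that pattern, seen lower in 2.91% and higher in 5.11% of all probe sets. Its adjusted p passed the threshold with arrays centred on their medians (0.0482), with array weights (0.0272) and without vehicle 12 h replicate 3 (0.0490), and lay between 0.0507 and 0.249 in the other fits.

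Among the enzymes that degrade cAMP, the lead of Pde4b gave 138, 208 and 323 in vehicle at 12 h and 83.3, 98.6 and 113 at 24 h. All late arrays were below all early ones, and the early ones spread over more than a 2-fold range. The change was -0.998 (SE 0.29, adjusted p = 0.130). The highest early value was that of replicate 3, the vehicle array with the highest endothelial marker mean (8.65 on the log2 scale against 7.14 and 6.81), and without that array the change was -0.71. The same array also had the lowest granulosa and oocyte marker means of the vehicle arrays. The second Pde4b probe set had a change of -0.54 (SE 0.30, adjusted p = 0.380) with overlap, and the 2 sets correlated at 0.805. Pde4d had low signals, 65.0, 60.5 and 92.9 at 12 h and 36.5, 42.0 and 76.4 at 24 h, which overlapped. Its change was -0.42 (SE 0.27, adjusted p = 0.458), with a 95% interval of -1.05 to 0.20. It ranged from -0.26, without vehicle 12 h replicate 3 or 24 h replicate 1, to -0.67, without 24 h replicate 3.

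Adcy7, which makes cAMP, gave 292, 489 and 863 in vehicle at 12 h and 298, 301 and 504 at 24 h. The change was -0.47 (SE 0.37, adjusted p = 0.546). Without vehicle 12 h replicate 3, which had the highest Adcy7 signal and the highest theca marker mean of the 6 (10.09), it was -0.08 (SE 0.29). Its 3 probe sets agreed poorly, with correlations of 0.196 to 0.626 over 17 arrays, so the lead speaks less firmly for the gene than in Prkar2b, Crem or Rgs2. The other 2 sets had changes of -0.26 and -0.23.

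Sgk1 and Rgs2 stood at the 98.2th and 97.1th percentile of mean signal over all probe sets. Sgk1 gave 1475, 1882 and 988 at 12 h and 1978, 1860 and 1561 at 24 h, with overlap and a change of 0.35 (SE 0.22, adjusted p = 0.447, 95% interval -0.16 to 0.86), and of 0.10 without vehicle 12 h replicate 3. Rgs2 gave 1041, 1518 and 1113 at 12 h and 1303, 1205 and 1168 at 24 h. Its late arrays all fell inside the range of the early ones, and the change was 0.02 (SE 0.16, adjusted p = 0.969, 95% interval -0.35 to 0.39). That sign was not stable, since centring each array on its median moved every time change by -0.10 and Rgs2 to -0.08. Both other tested Rgs2 probe sets had changes of -0.19 and -0.02, and the 3 sets correlated at 0.763 to 0.839.

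**Figure D2:**
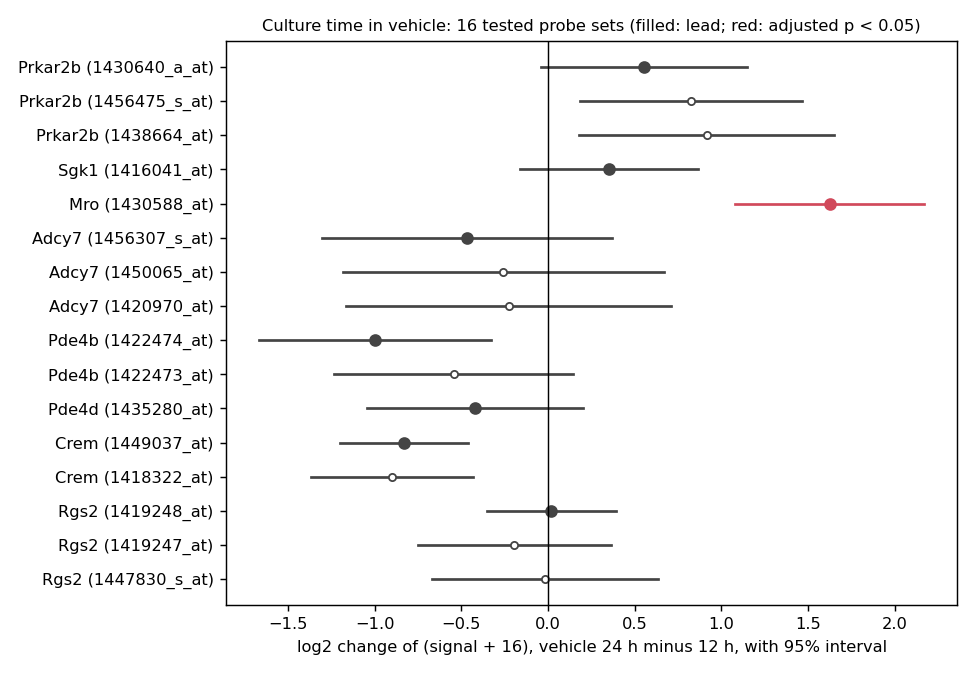
Log2 change of (signal + 16) from 12 to 24 h in vehicle, with its 95% interval from limma, for the 16 tested member probe sets (3 against 3 arrays). Filled points are the leads, and red marks an adjusted p below 0.05. Mro alone is red at 1.62, the Crem and Pde4b leads lie at -0.83 and -0.998 with intervals below 0, and Rgs2 lies at 0.02, a sign that median centring turns.

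The 8 probe sets under the filter belonged to Pde4b (4), Crem (2), Pde4d (1) and Rgs2 (1), and none exceeded a signal of 23.7 on the 17 arrays. The 4 of Pde4b ranged from 0.0109 to 18.3, those of Crem from 0.524 to 23.7, that of Pde4d from 0.547 to 5.02 and that of Rgs2 from 3.82 to 16.1. Signals this low carry little information beside an added 16, and these sets were not tested.

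Markers of cell types also differed between the times. The mean log2 signal of 12 granulosa markers was 8.36, 8.34 and 7.36 in vehicle at 12 h and 9.05, 8.91 and 8.94 at 24 h. These did not overlap, and the low 12 h value was that of replicate 3 alone. Of the 12 markers, 11 were higher at 24 h (median change 1.00, 2 called). The granulosa transcription factor gene Foxl2 rose by 1.05 (SE 0.14, adjusted p = 0.0196). The 11 endothelial markers had a median change of -0.67 (9 lower, 0 called) and mean log2 signals of 7.14, 6.81 and 8.65 at 12 h and 6.42, 6.80 and 7.51 at 24 h. These overlapped, and the high 12 h value was that of replicate 3 alone. The 9 leukocyte markers had a median of 0.32 (7 higher) with Csf1r called lower, and the 12 ovarian surface epithelium markers 0.49 (8 higher) with Upk3b called higher. The medians of the 10 theca and 15 oocyte markers were 0.15 and 0.10, with none called, and the median over 11213 genes was -0.00122. The oocyte marker mean varied widely, at 8.37, 9.28 and 5.33 in vehicle at 12 h and 6.63, 8.87 and 7.84 at 24 h. Replicate 3 of AMH 200 ng/mL at 12 h, from the same pool as the vehicle array with 5.33, also had 5.33.

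The members followed these markers to different degrees over the 17 arrays, which share pools and times, so the correlations are a description. With the granulosa marker mean, Prkar2b correlated at 0.827, Mro at 0.799 and Sgk1 at 0.639, Crem at -0.767 and Pde4b at -0.61. Pde4b correlated at 0.75 with the endothelial marker mean, and Adcy7 and Pde4d at 0.666 and 0.592 with the theca and interstitial one. With the oocyte marker mean all 8 lay between -0.228 and 0.116. The part of these markers in the time differences was not tested. Among the members, the pairs farthest from 0 were Adcy7 with Pde4d (0.762), Prkar2b with Crem (-0.741), Mro with Pde4b (-0.693) and Prkar2b with Mro (0.691).

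The genes most like each lead over these 17 arrays were named by Pearson correlation of log2 values. Crem was closest to Irf2bp2 (0.951), Pkd2l2 and the EGF-like ligand gene Epgn (both 0.947). Mro was closest to the malic enzyme gene Me2 (0.949), Epb41l5 (0.942) and Large2 (0.933). Prkar2b was closest to Wdr13 (0.955), Twsg1 (0.945) and Nt5c2 (0.943). For Sgk1 the first were Bnip3 (0.904) and the granulosa gap junction gene Gja1 (0.9). For Pde4b they were Mfng (0.911) and the laminin gene Lamb1 (0.91), and for Pde4d Tspan11 (0.867). Adcy7 was closest to Dclk1 (0.911), Chst2 and the stromal receptor gene Pdgfra (both 0.883). Rgs2 had the weakest likeness, 0.815 to Fam160b2.

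Around the members, 114 other genes of the pathway were read from 10 lists, of which 88 had a tested probe set. With culture time 1 of the 88 rose and 3 fell (limma, adjusted p below 0.05). The riser was Fshr, the FSH receptor gene itself, from a mean signal of 15.8 ± 18.8 (SD, n = 3) to 149 ± 67.9, a change of 2.43 (SE 0.45, adjusted p = 0.0477). At 12 h its mean was below the level of the filter and its SD exceeded it, so Fshr was tested because of its 24 h signals, and the size of its change rests on the added 16. Fshr is also 1 of the granulosa markers. The others in its list of receptors and G protein subunits had changes that did not pass, and the median of its 7 genes was -0.09. The genes that fell were Btc and Ereg, which encode EGF-like growth factors of the ovulatory response, and the immediate early gene Fos. Btc went from 504.5 ± 254 to 91.5 ± 14.7 (-2.17, SE 0.33, adjusted p = 0.0318), Ereg from 707 ± 165 to 222 ± 87.0 (-1.64, SE 0.27, adjusted p = 0.0401) and Fos from 321 ± 80.3 to 86.3 ± 33.7 (-1.74, SE 0.29, adjusted p = 0.0401).

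Most genes of the FSH-induced list were higher at 24 h and most of the LH and cAMP list lower. Of 15 measured genes known as induced by LH or cAMP, 14 were lower at 24 h (median -0.98, 3 called), as were Crem and Pde4b. Of 11 measured FSH-induced granulosa genes, 10 were higher (median 0.63, 0 called), as were Prkar2b and Mro. This list shares 4 of its measured genes (Hsd17b1, Fst, Inha and Nr5a2) with the granulosa markers, so the counts of these lists are not separate observations. Both lists and the members were also chosen with earlier results of these data known, so the counts are a description only. The median change over 11213 genes was -0.00122. The estradiol-forming enzyme gene Hsd17b1 had 350 ± 203 and 1237 ± 80.1 (1.99, SE 0.44, adjusted p = 0.0700) and the inhibin beta A gene Inhba 397 ± 97.2 and 886 ± 314.5 (1.09, SE 0.27, adjusted p = 0.0912). None of the remaining 8 lists had a median beyond 0.13 in either direction.

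Among the relatives of the members in the other signalling steps, no gene passed the test. Of the other 6 adenylyl cyclases 4 were higher, led by Adcy9 at 0.65 (SE 0.24, adjusted p = 0.201). Of 7 PKA subunits and inhibitors 4 were higher, and the lowest p belonged to the regulatory subunits Prkar1b (-0.83, SE 0.18, adjusted p = 0.0685) and Prkar2a (-0.50, SE 0.17, adjusted p = 0.172). Of 11 other phosphodiesterases 9 were lower, with Pde10a at -0.995 (SE 0.43, adjusted p = 0.260). In the CREB list the CREB-coactivator kinase gene Sik1 had -0.93 (SE 0.25, adjusted p = 0.102), among the EPAC and AKAP proteins the anchoring protein gene Akap7 had 1.02 (SE 0.22, adjusted p = 0.0634), and among 8 RGS genes Rgs12 had 1.39 (SE 0.27, adjusted p = 0.0525). Of 4 SGK and AKT kinases 3 were higher, all within 0.14 of 0.

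**Figure D3:**
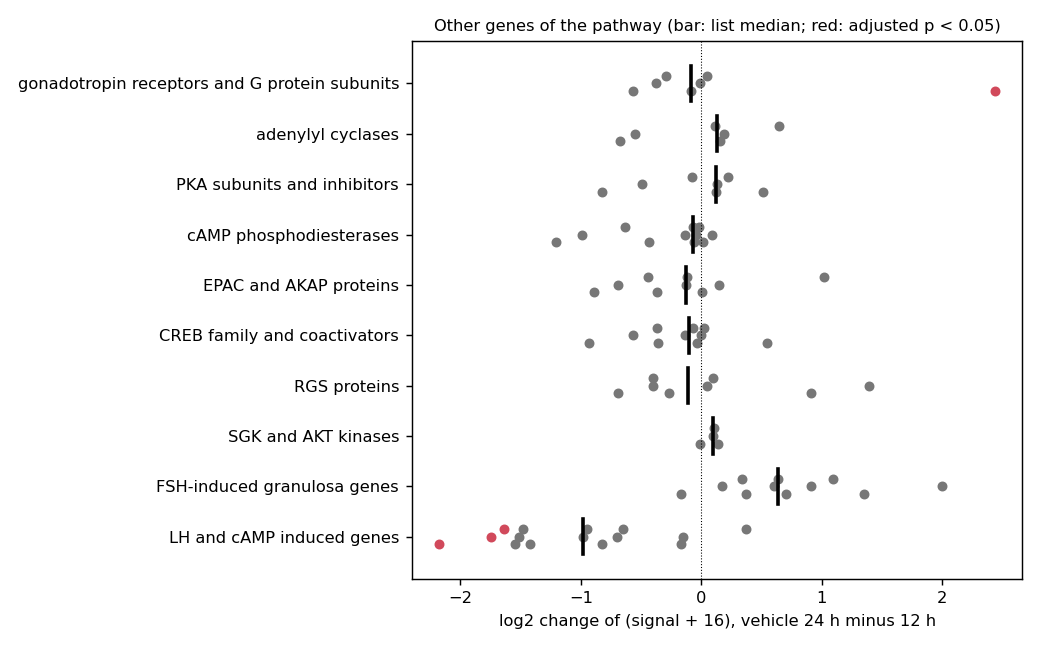
Log2 change of (signal + 16) from 12 to 24 h in vehicle for the measured genes of 10 lists around the members (1 point per gene, vertical offsets only for legibility). Black bars are list medians and red marks an adjusted p below 0.05. Fshr lies at 2.43, and Btc, Fos and Ereg lie between -2.17 and -1.64 in the list with a median of -0.98.

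No member was called for AMH at either dose or time. In each of the comparisons of AMH with vehicle at 24 and 12 h, of 200 with 50 ng/mL, of the means over both times and of the differences between the times, 0 of 22518 probe sets were called by limma (0%), and so 0 of 16 member probe sets. At 24 h with 50 ng/mL the 8 leads had changes of -0.33 to 0.50 (median -0.03), and 0 of the 16 had an unadjusted p under 0.05 against 2.69% of all. Of the 16 sets, the leads of Adcy7 and Pde4b were higher in each of 3 pools, as were 10.8% of all probe sets, and the leads of Prkar2b and Crem and a second Rgs2 set were lower in each, as were 12.2%. The second Pde4b set had -0.18 and was higher in 1 of 3 pools, as was each of the other Prkar2b sets. With 200 ng/mL at 24 h they had changes of -0.34 to 0.44 (median -0.02), with 0 of 16 against 1.68%. The leads of Prkar2b and Mro were higher in each of 3 pools, as were 15.7% of all probe sets, and the leads of Crem and Rgs2 and the second Pde4b set were lower in each, as were 11.9%. The 95% intervals limit what could have been missed only on the log2(signal + 16) scale, which shrinks changes of low signals. Among the 8 leads, Rgs2 had the tightest, -0.50 to 0.24 with 50 ng/mL and -0.46 to 0.27 with 200 ng/mL. Adcy7 had the widest of the leads, -0.35 to 1.34 and -1.18 to 0.51. Another Adcy7 set had wider ones, -0.71 to 1.23 and -1.24 to 0.69.

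Between the 2 doses at 24 h, 2 of the 16 member probe sets had an unadjusted p under 0.05, against 4.16% of all. Mro gave 42.4, 95.3 and 131 with 50 ng/mL and 197, 123 and 144 with 200 ng/mL in replicates 1 to 3. The higher dose was above the lower in each pool, by log2 differences of 1.87, 0.32 and 0.12, so replicate 1 carried most of the mean of 0.77 (SE 0.30, adjusted p = 0.999, limma), which was 0.22 without it. Prkar2b gave 667, 679 and 1079 with 50 ng/mL and 1113, 1055 and 1250 with 200 ng/mL. Its differences in the 3 pools were 0.72, 0.63 and 0.21 (mean 0.52, SE 0.22, adjusted p = 0.999). Being higher in every pool was shared by 17.4% of all probe sets, and Pde4d (-0.48, SE 0.30) and another Adcy7 set (-0.53, SE 0.45) were lower in every pool, as were 11.5%. Both other Prkar2b sets were higher in 2 of 3 pools. Adcy7 gave 771, 302 and 563 with 50 ng/mL and 162, 356 and 374 with 200 ng/mL, lower in 2 of 3 pools (mean -0.83, SE 0.39, adjusted p = 0.999). Replicate 1 carried this mean as well, which was -0.17 without it. Beside it, all 10 theca and interstitial markers were lower with 200 than with 50 ng/mL at 24 h (median -0.55, 0 called), and their part in the Adcy7 values was not tested.

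At 12 h the member with the lowest p was Prkar2b. With 50 ng/mL it gave 593 and 355 in the 2 usable pools, below the vehicle values of 899 and 512, by -0.59 and -0.51 on the log2 scale. The fitted change was -0.67 (SE 0.26, adjusted p = 0.867), beyond both pools because the fit also uses the vehicle and AMH 200 ng/mL arrays of replicate 3, and it was -0.55 (SE 0.24) without them. There 1 of the 16 had an unadjusted p under 0.05 against 5.69% of all. In both pools 5 of the 16 were lower (all 3 Prkar2b sets, the Pde4b lead and the second Crem set) and 0 higher, where 28.6% of all probe sets were lower and 26.1% higher. With 200 ng/mL it gave 463, 610 and 229 against 899, 512 and 513, lower in 2 of 3 pools (-0.60, SE 0.22, adjusted p = 0.432). There 3 of the 16 had an unadjusted p under 0.05, against 11.4% of all. The other 2 were a second Prkar2b probe set (-0.76, SE 0.33) and a lesser Adcy7 set (0.54, SE 0.22, higher in 3 of 3 pools). Mro, too, was higher in all 3 pools (0.52, SE 0.30), which 8.76% of all probe sets were, and Pde4b lower in all 3 (-0.42, SE 0.24), which 14.4% were. Without replicate 2 of 12 h, the pool in which Prkar2b was higher with AMH, 242 probe sets and 2 member sets were called, and Prkar2b had -1.02 (adjusted p = 0.0323). Without replicate 3 of 12 h, the change of Prkar2b was -0.34 (SE 0.24). The AMH 200 ng/mL array of that replicate had the lowest median signal (18.1) and granulosa marker mean (7.08) of the 17. It also had the lowest median correlation with the others (0.92) and the highest mean of hybridisation controls (3879). Between 200 and 50 ng/mL at 12 h, 0 of 16 had an unadjusted p under 0.05 against 5.61% of all, and the leads had fitted changes of -0.27 to 0.77, or -0.46 to 1.03 without replicate 3. In both pools 5 of the 16 were higher, the 3 Adcy7 sets among them, and 1 was lower (Sgk1), against 24.6% and 23.6% of all.

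**Figure D4:**
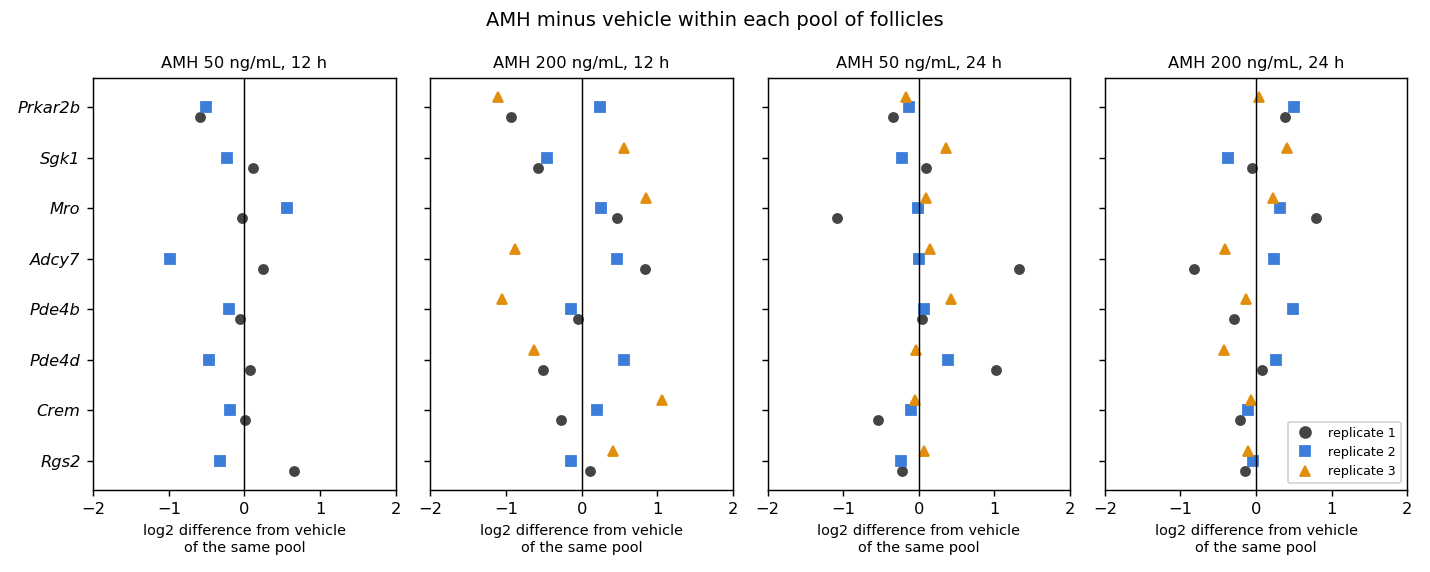
Log2 difference of (signal + 16) from the vehicle array of the same pool, for the 8 leads, by AMH dose and time. Symbols are pools (replicates), and AMH 50 ng/mL at 12 h has 2 because the third array stood apart. Mro lies above 0 in all pools with 200 ng/mL, and Prkar2b lies below 0 in all pools with 50 ng/mL.

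Averaged over both times, 200 ng/mL gave a higher Mro in 6 of 6 pools, with a mean change of 0.48 (SE 0.21, adjusted p = 0.951). Higher in all 6 pools was seen for 0.848% of all probe sets and lower for 1.42% (0 members), and 1 of the 16 had an unadjusted p under 0.05 against 3.39%. The 6 differences ran from 0.22 to 0.85, the mean signals were 24.9 ± 9.37 (SD, n = 3) in vehicle and 41.8 ± 6.33 with AMH at 12 h, and 108 ± 12.6 and 154.5 ± 38.3 at 24 h. The values at 12 h are close to the added 16. With 50 ng/mL Prkar2b was lower in 5 of 5 pools, with differences of -0.59 to -0.13. The fitted mean effect was -0.44 (SE 0.17, adjusted p = 0.906), and -0.38 (SE 0.15) without 12 h replicate 3, the pool with no usable AMH 50 ng/mL array. Both other Prkar2b sets were lower in 4 of 5 pools. Lower in all 5 was seen for 4.61% of all probe sets and higher for 2.58% (0 members), and 1 of 16 had an unadjusted p under 0.05 against 4.71%.

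The AMH 200 ng/mL effect on Prkar2b was tested for a difference between times, at 0.31 (SE 0.22) after 24 h and -0.60 (SE 0.22) after 12 h. The difference was 0.91 (SE 0.31, adjusted p = 0.627, limma), so it did not pass over all probe sets, and was 0.65 (SE 0.31) without replicate 3 of 12 h. Here 3 of the 16 had an unadjusted p under 0.05 against 7.19% of all. The other 2 were a further Prkar2b set (1.06, SE 0.48) and an Adcy7 set (-0.79, SE 0.31). For 50 ng/mL it was 0 of 16 against 3.24%. These comparisons share their vehicle arrays, so their values stand side by side and are no separate evidence.

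Of the other pathway genes, 0 of 88 were called in any AMH comparison. Their median change was 0.03 with 50 and -0.000388 with 200 ng/mL at 24 h, and -0.13 and -0.09 at 12 h. All 11 measured phosphodiesterases were lower with 200 ng/mL at 12 h (median -0.33, 0 called), Pde1a among them at -0.83 (SE 0.26), and 5 of 11 were higher with 200 ng/mL at 24 h. In the same 12 h comparison all 6 other adenylyl cyclases (median -0.33) and 9 of 11 endothelial markers (median -0.43) were lower, with 0 called, and their part in the result was not tested. No cell type marker was called under AMH. All 15 oocyte markers were lower with 50 ng/mL at both times (median -0.86 at 12 h and -0.92 at 24 h), while the granulosa medians lay between -0.17 and 0.14 in the 4 comparisons with vehicle. The oocyte marker means of the vehicle arrays themselves ranged from 5.33 to 9.28. All 9 leukocyte markers were lower at 24 h with either dose. All 12 surface epithelium markers were lower at 24 h with either dose, while at 12 h 11 of 12 were higher with either dose (medians 0.38 and 0.56), with a mean of 9.31 in AMH 200 ng/mL replicate 3 against at most 8.14 in the other 12 h arrays. Their part in the AMH differences of the members was not tested.

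The array that stood apart gave member probe sets values outside the range of the other 17 in both directions. The Crem lead stood at 1809 against at most 682, while the second tested Crem set went the other way, at 39.7 against at least 77.9. Of the other leads, Sgk1 stood at 3670 against at most 2107, Rgs2 at 396 against at least 1021, and Adcy7 at 1.18 against at least 162. Prkar2b stood at 196, below the lowest 229, while the leads of Mro (38.6), Pde4b (156) and Pde4d (47.9) lay within range and the second Pde4b set (114 against at most 96.4) did not. With all 18 arrays in the fit, AMH 50 ng/mL at 12 h gave changes of 0.76 (SE 0.42) for the Crem lead, -0.92 (SE 0.41) for the second Crem set and -2.14 (SE 0.85) for Adcy7. The leads of Crem and Adcy7 had 0.09 (SE 0.25) and -0.63 (SE 0.46) without that array. With the whole of that pool left out they were -0.09 (SE 0.18) and -0.37 (SE 0.41), so the sign of Crem turned, and no member was called in any of these fits.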

How the data were processed

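RNA (5 ng per culture) was amplified, labelled and hybridised to Affymetrix whole-genome mouse arrays, per the labels' protocols. The deposited intensities are MAS5 signals on a linear scale, per the submitters' processing notes (version not given in the sources used here), and the trimmed mean (2%) of each array was the same. Of 45101 probe sets, 64 controls were left out, and 34945 others had 1 gene symbol, 932 several and 9160 none.

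From the signals, log2(signal + 16) was computed. Probe sets whose mean over 17 arrays exceeded 5.44, its 50th percentile, were tested with limma 3.58.1 in R 4.3.3 (lmFit, eBayes with trend, Benjamini-Hochberg over 22518 probe sets, threshold 0.05). AMH comparisons had the pool as a block (7 residual degrees of freedom). The time comparison used the 6 vehicle arrays without a block (4 residual degrees of freedom). Vehicle arrays of the same replicate number at the 2 times had deviations from group means that correlated at 0.206 to 0.317 (3 pairs). Pairs of different numbers were not set beside them, and deviations within a group are not independent, so these values cannot show a pairing. The blocked count therefore stands only beside the main result. Titles gave the time, since some descriptions of 12 h arrays differ from them. The pathway and marker lists, and the members, were chosen with earlier results of these data known. All member probe sets could be named, list genes only where they passed the threshold or, in a list where none did, among the 2 with the lowest p per comparison, and the 3 genes most correlated with each lead. RefSeq gave promoters and loci. Alternatives were other pseudocounts, filters, normalisations, blocks and array weights, and each replicate left out. The scripts were tested on simulated data.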

Additional observations from a re-analysis of the deposited data

Results flagged for a closer look

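The fitted AMH 50 ng/mL effect on the lead probe set of Pde4b had opposite signs at the 2 times. It was 0.18 at 24 h, higher in 3 of 3 pools by 0.05, 0.07 and 0.42, and -0.29 at 12 h, lower in 2 of 2 pools by log2 differences of -0.05 and -0.20. The difference was 0.465 (SE 0.36, adjusted p = 0.999, limma), so it did not pass the test. Without 12 h replicate 3, which has no usable AMH 50 ng/mL array but enters the fit, the 12 h effect was -0.13 and the difference 0.31 (SE 0.29). The second tested Pde4b set had -0.18 at 24 h and -0.48 at 12 h, with no change of sign.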

How the results depend on the processing

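The number of probe sets called with culture time in vehicle, 291, was 154 with a pseudocount of 1, 60 with no filter, 128 above the 75th percentile, 767 with array weights, 642 with the replicate block, 619 with all 17 arrays and the pool as a random block, and 0 to 531 when 1 vehicle array was left out. The number of members called, 1, was 2 with median centring and with array weights, 0 with no filter and above the 75th percentile (where Mro was not tested), and 0 to 2 with 1 array left out. The replicate block changed no other call of a member. The time change of Rgs2, 0.02, was -0.0809 with median centring and -0.086 to 0.18 with 1 array left out.

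For AMH, where no probe set was called, array weights gave 1025 calls for 50 ng/mL at 24 h, 8 for 200 ng/mL at 24 h, 513 between the doses at 24 h and 235 for the mean effect of 50 ng/mL. Arrays of the same time only gave 1 call for 50 ng/mL at 24 h, and a fit with no trend gave 1 for the mean effect of 50 ng/mL. Leaving out a pool gave 0 to 4 calls for 50 ng/mL at 12 h, 0 to 242 for 200 ng/mL at 12 h (0 to 2 members), 0 to 17 between the doses at 12 h, 0 to 2 and 0 to 1 for the mean effects of 200 and 50 ng/mL, and 0 to 3 for the difference of the 50 ng/mL effect between times. The highest of each came from leaving out replicate 2 of 12 h, shared with replicate 1 of 12 h for the mean effect of 50 ng/mL. The cause of these shifts was not tested.

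Of 227 values of the 15 named member changes under alternatives, 214 kept their sign and side of the threshold. The other 73 member changes had 1052 such values, with 93 of opposite sign and 0 called, and all 73 had a 95% interval that included 0. Signals near the added 16, as for Mro at 12 h, limit what can be measured.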
